A study of Rattus norvegicus with 12 samples.

Results

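The clock output factors described here are 8 genes: Dbp, Tef, Hlf, Nfil3, Ciart, Bhlhe40, Bhlhe41 and Wee1. They were found on the arrays by matching the accession of each gene probe to a rat gene symbol, and no measured value entered that matching. The 8 genes themselves were chosen with earlier results of these data known. Probes of 6 of the 8 genes were found, 8 probes of 30367 in all and 6 of the 26903 genes or unnamed accessions, and the matching named no probe for Hlf or Bhlhe41. Dbp had 3 probes, and Tef, Nfil3, Ciart, Bhlhe40 and Wee1 had 1 each.

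The tissue was the dorsal root ganglion at L6, a cluster of sensory nerve cell bodies with their glia, of male Fischer 344 rats, an inbred strain. Group young_AL was 6 months old with food ad libitum, and group old_AL was 25 to 28 months old with food ad libitum. Group old_CR, also 25 to 28 months old, had been given food on 3 days of each week (Monday, Wednesday and Friday) since the age of 6 weeks, which came to about 40% caloric restriction. Each group had 4 rats and 4 one-colour arrays. All rats were kept on an even light and dark cycle. The labels give no hour of tissue collection and no time since the last meal, so either of these and the diet cannot be told apart.

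The circadian clock is a feedback loop in which CLOCK and BMAL1 bind E-box sequences and switch on their own repressors, the PER and CRY proteins. The same E-boxes drive output genes. Dbp, Tef and Hlf encode the PAR bZIP activators, which bind D-box sequences and pass the rhythm on to other genes, and Nfil3 encodes a bZIP repressor that competes for the same D-boxes. Ciart, Bhlhe40 and Bhlhe41 encode repressors of CLOCK and BMAL1, and Wee1 encodes a kinase that holds back entry into mitosis and is controlled by the clock in mouse liver. In peripheral tissues, these rhythms are set by feeding time as well as by light, and Dbp transcripts have one of the widest daily swings.

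Promoter sequence from RefSeq (build GRCr8) is shown for 4 members, because the E-box is the element through which the clock is known to reach them. Of the 8 genes, 6 were in the promoter table, which holds 1 window for a gene, from 250 bases before its listed start to 50 after it. The first line below is the 120 bases before the listed start of Ciart, chr2:186112247-186112366 on the minus strand. The Tef line is chr7:115206602-115206661 and the Bhlhe40 line is chr4:143174203-143174262, each 60 bases around an E-box on the plus strand. The Dbp line is the 120 bases before its start, chr1:105312136-105312255 on the plus strand. All are written 5′ to 3′, and capitals mark the E-box CACGTG.
Ciart: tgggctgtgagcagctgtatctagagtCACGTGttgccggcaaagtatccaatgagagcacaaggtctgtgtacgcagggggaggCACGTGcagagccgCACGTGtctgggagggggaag
Tef: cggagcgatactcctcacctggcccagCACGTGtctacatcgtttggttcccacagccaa
Bhlhe40: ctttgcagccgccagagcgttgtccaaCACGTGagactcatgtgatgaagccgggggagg
Dbp: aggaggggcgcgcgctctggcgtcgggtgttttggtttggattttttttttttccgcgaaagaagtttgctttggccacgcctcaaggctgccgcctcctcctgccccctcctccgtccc

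The Ciart window held 3 copies of the E-box, which begin at positions -93, -35 and -21 counted from the listed start. This window lies inside the span of the gene, chr2:186108744-186113778. The Tef window likewise lies inside its gene, chr7:115197180-115221930. The E-boxes of these genes are therefore placed by a start within the gene, not by its outer end. Of the 33469 promoters in the table, 6.42% held at least 1 copy on either strand and 19, or 0.057%, held 3 or more. The windows of Tef (position -198), Bhlhe40 (position -220) and Bhlhe41 (position -48) held 1 copy each. The windows of Dbp and Nfil3 held no match to any motif searched. The other motifs were the E-prime box CACGTT, present in 4.83% of all windows, the D-box (TTATGTAA or TTACGTAA) in 1.01%, and the core of the ROR element (TAGGTCA or TGGGTCA) in 6.6%. None of these was found in the 6 members' windows. Both strands were searched, and no motif overlapped another. A match describes letters only, and its absence says nothing of sites outside the window; the best known Dbp E-boxes, in mouse, lie partly within the gene.

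Every value below is log2 of the processed Cy3 signal minus the 75th percentile of that signal on the same array, so 0 is a probe as bright as the 75th percentile. Differences between groups use this log2 scale and carry ± their standard error, and p-values come from limma, adjusted by the Benjamini-Hochberg method over all genes tested. The array old_AL 1 stood apart: its 75th percentile was 7662, against 2634 to 3110 on the others, 4026 of its gene spots were flagged as non-uniform, against 1 to 208, and over all probes it correlated with the rest at a median of 0.929, where the others reached 0.971 to 0.994. The main fit therefore used 11 arrays and 20849 genes, and values from the fit with all 12 arrays (20942 genes) are given for the members' brightest probes and for the lists. The residual SD of a typical gene was 0.102 with 11 arrays and 0.363 with 12. The young_AL arrays lay on one slide and both old groups on the other, so the effects of age and of slide cannot be told apart. On the shared slide old_AL filled one row and old_CR the other, so diet and row cannot be told apart. The number of arrays limits the precision. The 3 comparisons share groups, so their values for a gene are not independent.

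Of the 6 measured genes, Ciart was well above background on 5 of the 11 arrays, 4 of them old_CR, so it passed the filter of 4 arrays through the group where it was high. Counts and medians over the members are therefore given for the other 5 genes, and the calls and differences of Ciart are descriptions.

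Among old rats, Dbp, Tef and Wee1 were higher on restricted feeding, by 2.19-fold, 1.33-fold and 1.37-fold. These 3 of the 5 genes passed the limma test at an adjusted p under 0.05 with 11 arrays, none fell, and Nfil3 and Bhlhe40 did not pass. Over all genes tested, 1.06% were called in either direction and 0.269% were called higher. The median difference of the 5 genes was 0.41, against -0.05 over all genes. With all 12 arrays, 0 of the 5 passed, as did 0% of all genes in the higher direction, while 1248 genes had an unadjusted p under 0.05 (5503 with 11 arrays).

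With age at free feeding, Bhlhe40 was the one member that passed, higher in old_AL than in young_AL by 1.34-fold, and the other 4 did not pass. Of all genes, 3.24% were called in that comparison and 2% were called higher. The median of the 5 was 0.08, against 0.03 over all genes. With 12 arrays 0 of the 5 passed and 0.00955% of all genes were called higher (1405 genes had an unadjusted p under 0.05).

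Against young rats, old rats on restricted feeding had higher Dbp, Tef, Wee1 and Bhlhe40, which is 4 of the 5, and Nfil3 did not pass. Of all genes, 2.41% were called in either direction and 0.787% higher. The median of the 5 was 0.47, against -0.02 over all genes. With 12 arrays Dbp alone passed, and the adjusted p-values of Tef, Wee1 and Bhlhe40 were 1, 0.122 and 1, and 0.0143% of all genes were called higher.

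**Figure D1:**
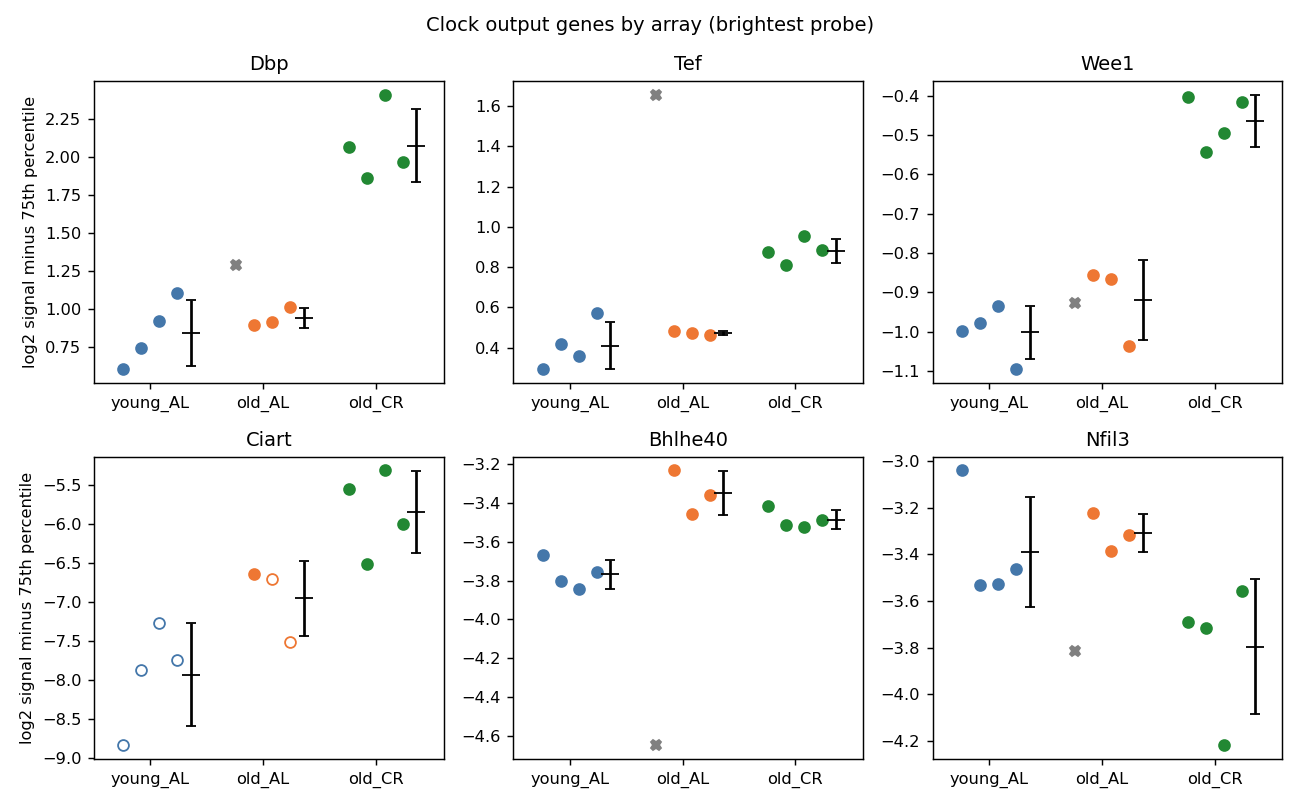
Log2 signal minus the array's 75th percentile for the brightest probe of each of the 6 measured genes (y axes differ), by group on the x axis. Each circle is an array, open where the probe was not well above background, the grey cross is old_AL 1, which the 11-array fit leaves out (its Ciart spot had an outlier flag and is missing), and the bar is the mean ± SD of the arrays in that fit. Dbp, Tef, Wee1 and Ciart have all old_CR circles above every other circle, and Tef and Bhlhe40 show old_AL 1 far from its group.

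Dbp encodes the PAR bZIP activator whose transcript is the usual readout of clock output. On its brightest probe, A_64_P017188, the young_AL arrays read 0.60, 0.75, 0.92 and 1.10. Arrays old_AL 2, 3 and 4 read 0.90, 0.91 and 1.02, and the 4 old_CR arrays read 2.06, 1.86, 2.41 and 1.96. All old_CR arrays lay above all others, while the old_AL values lay inside the young_AL range. In processed signal, the group means were 5329 in young_AL, 5170 in old_AL and 12530 in old_CR.

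Dbp was higher by 1.13 ± 0.14 in old_CR than in old_AL (95% interval 0.81 to 1.45, n = 4 and 3, limma adjusted p = 0.0289). It was higher by 1.23 ± 0.13 in old_CR than in young_AL (0.93 to 1.53, limma adjusted p = 0.00573), a 2.35-fold difference. Old_AL and young_AL differed by 0.10 ± 0.14 (-0.22 to 0.42, limma adjusted p = 0.697). The array old_AL 1 read 1.29 on this probe, also below every old_CR array. With it, the diet difference was 1.05 with a limma adjusted p of 0.150, so the size stayed close and the call was lost, and the difference from young_AL kept an adjusted p of 0.0432.

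The second and the third probe of Dbp, A_64_P049827 and A_64_P049828, are directed at the same accession, NM_012543, so they repeat the measurement on the same RNA and are not further replicates. On A_64_P049827 old_CR ranged from 0.60 to 1.15, old_AL from -0.27 to -0.09 and young_AL from -0.57 to -0.16. On A_64_P049828 the ranges were -0.32 to 0.22 in old_CR, -1.21 to -0.90 in old_AL and -1.51 to -1.10 in young_AL. The diet difference was 1.01 ± 0.14 on the one and 0.98 ± 0.15 on the other (limma, every probe tested on its own, 11 arrays, adjusted p = 0.0305 and 0.0344). Of these 11 arrays, young_AL 1 was lowest and old_CR 3 highest on all 3 probes. On old_AL 1 the probes disagreed, at 1.29, 0.43 and -1.78, above the other old_AL arrays on the first pair and below them on the last.

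**Figure D2:**
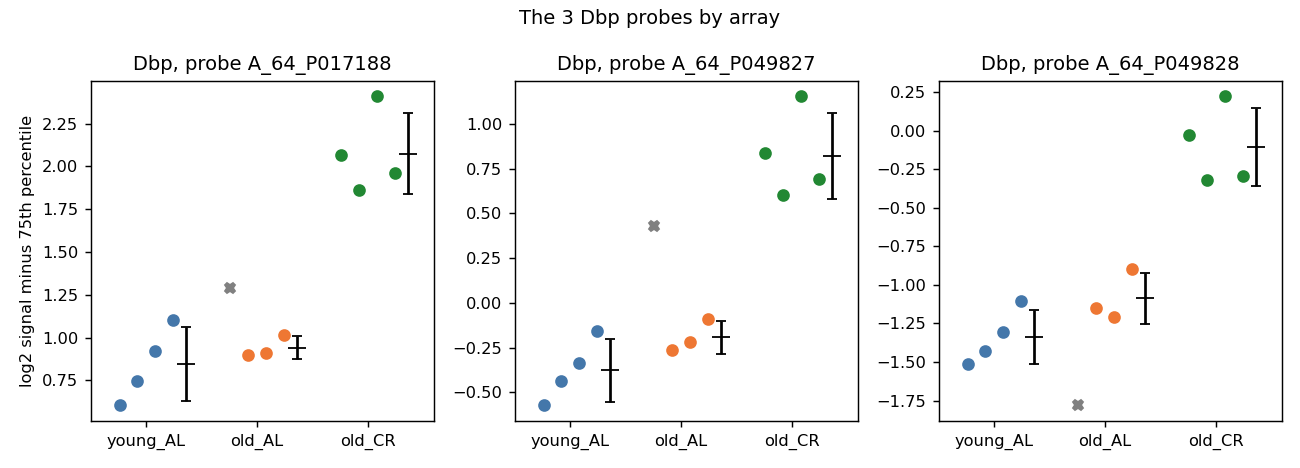
Log2 signal minus the array's 75th percentile for each of the 3 Dbp probes, by group on the x axis, with a circle per array, a grey cross for old_AL 1, and a bar for the mean ± SD of the arrays in the 11-array fit. On each probe the 4 old_CR circles lie above all the other circles, and the cross changes place from probe to probe.

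Tef encodes a second PAR bZIP activator, with a shallower daily rhythm than Dbp in most tissues studied. Its probe was printed as 10 spots, of which 8 to 10 were usable on an array. The young_AL arrays read 0.29, 0.42, 0.36 and 0.57, old_AL 2 to 4 read 0.48, 0.47 and 0.46, and old_CR read 0.88, 0.81, 0.95 and 0.88. The old_CR arrays lay above all others, and the SD over the repeated spots was 0.0233 to 0.0611 on these arrays.

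Tef was higher by 0.41 ± 0.06 in old_CR than in old_AL (95% interval 0.27 to 0.55, limma adjusted p = 0.0338), and by 0.47 ± 0.06 than in young_AL (limma adjusted p = 0.00995, 1.39-fold). Old_AL and young_AL differed by 0.06 ± 0.06 (-0.08 to 0.20, limma adjusted p = 0.565). The Tef result rests on leaving out old_AL 1, which read 1.66, above every other array, with an SD of 0.255 over its spots. With that array the diet difference was 0.11 (limma adjusted p = 0.801). Keeping the spots flagged as outliers on the 11 arrays gave a diet difference of 0.40 with an adjusted p of 0.202. The difference of old_CR from young_AL was then 0.73 and lost its call (limma adjusted p = 0.0632). That of old_AL from young_AL was 0.33 (limma adjusted p = 0.321).

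Nfil3 encodes the repressor that opposes Dbp and Tef at D-boxes, and in mouse liver its transcript peaks when Dbp is low. The young_AL arrays read -3.04, -3.53, -3.53 and -3.46, old_AL 2 to 4 read -3.22, -3.39 and -3.32, and old_CR read -3.69, -3.72, -4.22 and -3.56. All old_CR arrays lay below all the other 7, with old_CR 3 lowest. No difference passed the test. Old_CR differed from old_AL by -0.49 ± 0.17 (95% interval -0.86 to -0.12, limma adjusted p = 0.117), from young_AL by -0.41 ± 0.15 (-0.75 to -0.06, limma adjusted p = 0.197), and old_AL from young_AL by 0.08 ± 0.17 (-0.29 to 0.45, limma adjusted p = 0.785). On old_AL 1 Nfil3 read -3.82, inside the old_CR range, and with it the diet difference was -0.36 (limma adjusted p = 0.644).

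Ciart encodes a repressor that binds BMAL1 and is itself driven by E-boxes, the element found 3 times in its window above. It was measured by 1 dim spot on each array. The young_AL arrays read -8.84, -7.87, -7.26 and -7.75, none of them well above background, and old_AL 2 to 4 read -6.64, -6.71 and -7.51, of which old_AL 2 alone was. The old_CR arrays read -5.55, -6.51, -5.31 and -6.00, all well above background. The groups old_CR and young_AL were far apart, while the gap between the lowest old_CR and the highest old_AL array was small. In processed signal the means were 13, 22.4 and 53.6 in young_AL, old_AL and old_CR.

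On the measured means Ciart read 4.25-fold higher in old_CR than in young_AL, where no array was well above background. The fitted difference was 2.09 ± 0.37 (95% interval 1.25 to 2.92, limma adjusted p = 0.0269). Since its old_CR arrays alone brought it past the filter, this p is no independent support. The difference between old_CR and old_AL was 1.11 ± 0.40 (95% interval 0.20 to 2.01, limma adjusted p = 0.133), with 1 of 3 old_AL arrays above background, and between old_AL and young_AL it was 0.98 ± 0.40 (limma adjusted p = 0.189). Neither of these passed. The old_AL 1 spot carried an outlier flag, so the 12-array fit had the same values, and there the difference from young_AL had a limma adjusted p of 0.298. Under normexp background correction, which lifts dim signals by an offset, that difference shrank to 0.45 (adjusted p = 0.0575) and the one between the old groups to -0.07, while old_AL against young_AL, at 0.52, then passed (adjusted p = 0.0147).

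Bhlhe40 encodes DEC1, a repressor that competes with CLOCK and BMAL1 for E-boxes and also responds to hypoxia and other stimuli. The young_AL arrays read -3.67, -3.80, -3.84 and -3.76, old_AL 2 to 4 read -3.23, -3.46 and -3.36, and old_CR read -3.42, -3.52, -3.52 and -3.49. Both old groups lay above the young arrays and overlapped each other. Among the 6 members it was the one whose old groups overlapped.

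Bhlhe40 was higher by 0.42 ± 0.06 in old_AL than in young_AL (95% interval 0.28 to 0.55, limma adjusted p = 0.0170), and by 0.28 ± 0.06 in old_CR than in young_AL (limma adjusted p = 0.0363, 1.22-fold). Old_CR and old_AL differed by -0.14 ± 0.06 (-0.27 to 0.00, limma adjusted p = 0.190). The array old_AL 1 read -4.65, below every other array. With it, the age difference was 0.09 (limma adjusted p = 0.830) and the difference between the old groups turned to 0.19 (limma adjusted p = 0.707). Quantile normalization brought the age difference to 0.24, with an adjusted p of 0.0882.

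Wee1 encodes the kinase that keeps CDK1 phosphorylated and inactive. The young_AL arrays read -0.999, -0.98, -0.94 and -1.10, old_AL 2 to 4 read -0.86, -0.87 and -1.04, and old_CR read -0.40, -0.54, -0.50 and -0.42. The old_CR arrays lay above all others, and the ad libitum groups overlapped. Wee1 was higher by 0.46 ± 0.06 in old_CR than in old_AL (95% interval 0.32 to 0.59, limma adjusted p = 0.0289) and by 0.54 ± 0.06 than in young_AL (limma adjusted p = 0.00573, 1.45-fold). Old_AL and young_AL differed by 0.08 ± 0.06 (-0.05 to 0.22, limma adjusted p = 0.433).

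The array old_AL 1 read -0.93 for Wee1, within its group, and the diet difference with it was again 0.46, but with an adjusted p of 0.383 under the wider spread of the 12-array limma fit. Of 9 measured cell cycle genes that act with Wee1, none passed in any of the 3 comparisons. Their medians were -0.04 for old_CR against old_AL, 0.02 for old_AL against young_AL and -0.01 for old_CR against young_AL. In the diet comparison the smallest p-values were those of the cyclins Ccnb1 (-0.34 ± 0.15, limma adjusted p = 0.191) and Ccna2 (-0.19 ± 0.12, 0.342) and of the phosphatase Cdc25a (0.07 ± 0.05, 0.361).

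**Figure D3:**
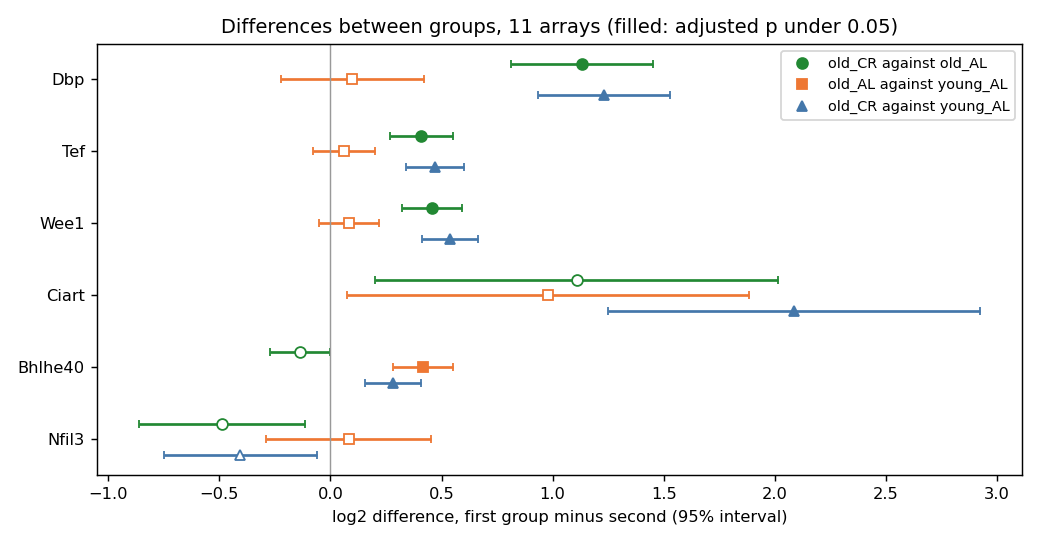
Log2 difference between groups for the 6 measured genes in the 11-array fit (x axis, first group minus second, bars are 95% intervals), with circles for old_CR against old_AL, squares for old_AL against young_AL and triangles for old_CR against young_AL, filled where the adjusted p was under 0.05. Dbp, Tef and Wee1 have filled circles and triangles and open squares near 0, whereas Bhlhe40 has a filled square.

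Across the 5 genes other than Ciart, the old_CR and old_AL arrays did not overlap for 4, all except Bhlhe40, against 23.5% of all genes with 11 arrays. For old_CR against young_AL 5 of 5 did not overlap, against 15.8% of all genes. For old_AL against young_AL it was 1 of 5, Bhlhe40, against 19.6% of all genes. With 12 arrays the counts were 2, 5 and 0, and no share over all genes is at hand there, so they are given as a description.

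The hold of the diet calls was uneven when 1 further array was left out of the 11. The difference between the old groups stayed at 1.02 to 1.20 for Dbp, 0.39 to 0.43 for Tef and 0.40 to 0.49 for Wee1. It passed in 7, 5 and 5 of the 11 such fits. Leaving out old_AL 4, old_CR 1, old_CR 4 or young_AL 3 ended the call of all 3 genes, with adjusted p-values of 0.0516 to 0.114, and leaving out old_CR 2 or old_CR 3 ended those of Tef and Wee1 at 0.0502 to 0.0646. The array old_AL 4 had the lowest median correlation of the 11 (0.971), and its 75th percentile was 34.5 times its 25th, where the other 10 arrays had 60.5 to 72.8. Against young_AL, Dbp (1.12 to 1.32), Tef (0.43 to 0.52) and Wee1 (0.51 to 0.56) passed in 11 of 11. There Ciart (1.78 to 2.31) passed in 5, lost without young_AL 1, 2 or 3 or old_CR 1, 3 or 4, and Bhlhe40 (0.26 to 0.31) in 3, at adjusted p-values up to 0.110. The age difference of Bhlhe40 (0.36 to 0.47) passed in 9, lost without young_AL 2 (0.0507) or 3 (0.0542). In a fit of the old groups alone, which lie on the same slide, Dbp, Tef and Wee1 had limma adjusted p-values of 0.0929, 0.0929 and 0.107, and in one of old_AL and young_AL alone Bhlhe40 had 0.0994.

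**Figure D4:**
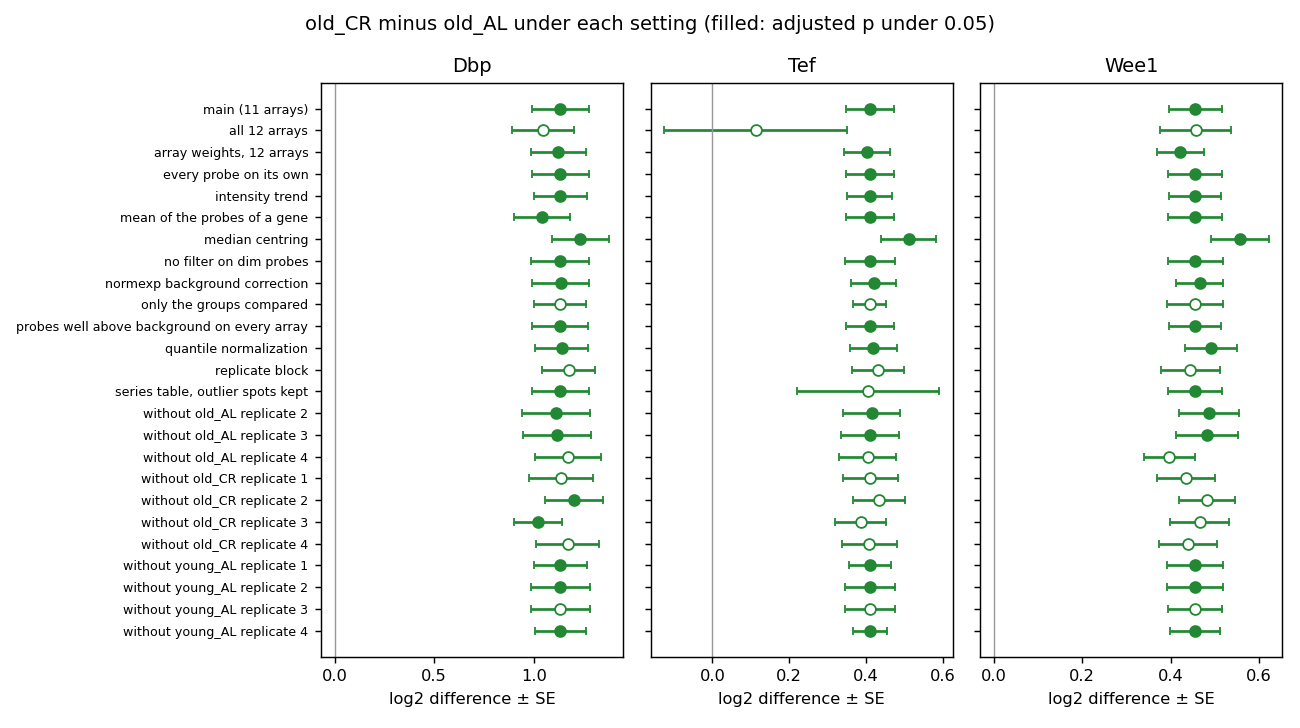
Log2 difference between old_CR and old_AL ± SE (x axis) for Dbp, Tef and Wee1 in the main fit, under each alternative and with each array left out (y axis), filled where the adjusted p was under 0.05. All points lie to the right of 0, with Tef lowest at 0.11 in the fit of all 12 arrays.

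Some arrays stood at the end of their group for several members. Array young_AL 1 had the lowest Dbp and Tef of its group and the highest Nfil3 and Bhlhe40. Array old_CR 3 had the highest Dbp, Tef and Ciart of its group and the lowest Nfil3 and Bhlhe40, and old_CR 2 had the lowest Dbp, Tef, Ciart and Wee1. These are orders of single arrays, given as a description.

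Likeness to Dbp, Tef and Ciart was measured over the 11 arrays, on log2 values centred on each gene's mean. It is the root mean square difference, so a smaller value is closer. Only genes with a symbol that were well above background on all 11 arrays could be named as close. For Dbp, whose own root mean square around its mean was 0.598, the closest of 11561 genes was the core clock gene Per2 at 0.182. The next were the water channel gene Aqp4 at 0.275, Klhl14 at 0.309, Klf15, a metabolic transcription factor, at 0.355, and Hs3st6 at 0.357. Nearest after turning the sign were Bmal1 at 0.256, the chemokine gene Cx3cl1 at 0.279 and the olfactory receptor gene Or4c52 at 0.286. The same arrays and the same group differences underlie all of these values.

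For Ciart, the members' own Dbp was the closest gene, at 0.578 against a spread of 1.01 in Ciart itself. Aqp4 followed at 0.602, Per2 at 0.627, Krt18 at 0.648 and Actg2 at 0.670. Ciart itself was well above background on only 5 of the arrays compared, 4 of them old_CR. Its remaining values were not well above background, so this order is a description, and shared clock output was not tested. For Tef, with a spread of 0.226, close genes were Slc12a5, a neuronal chloride transporter, at 0.0815, Caly at 0.0872, the cannabinoid receptor Cnr1 at 0.0884 and Ephx1 at 0.0956. None of these was a clock gene of the lists used here. Wee1 stood at 0.111 from Tef.

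**Figure D5:**
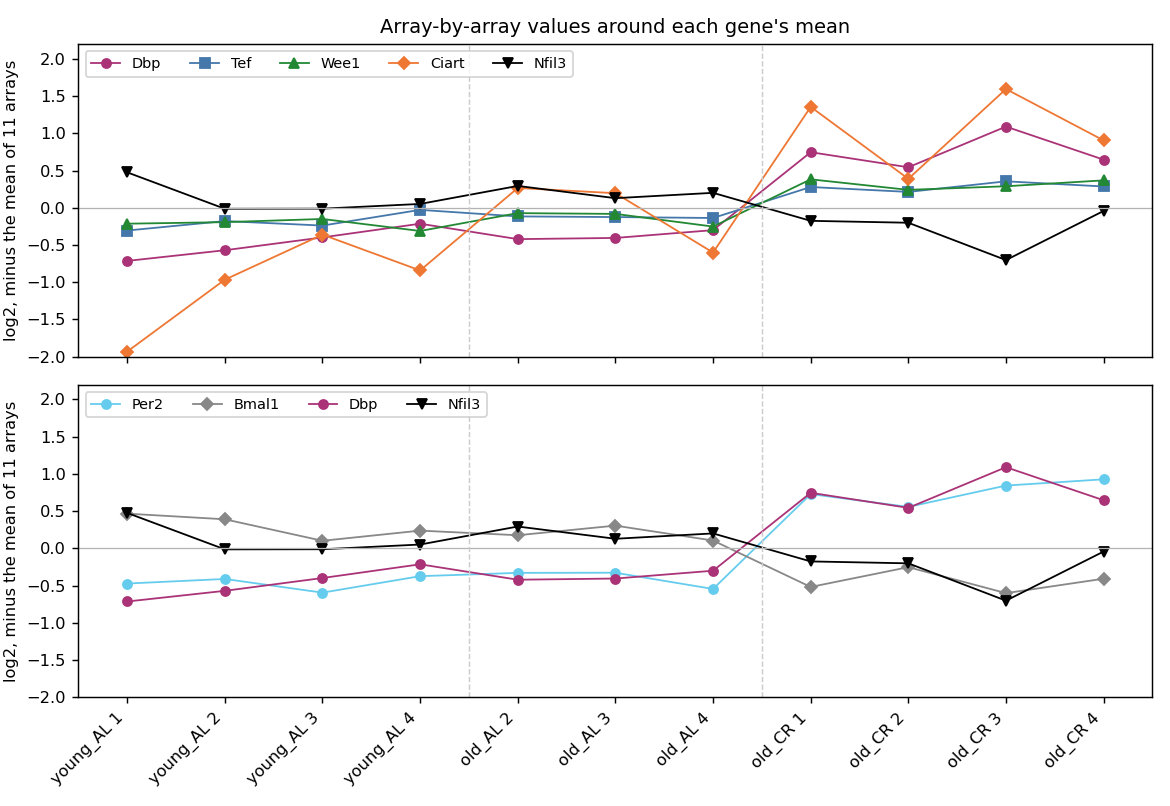
Log2 values of each array minus the gene's mean over the 11 arrays (y axis), with arrays along the x axis and dashed lines between young_AL, old_AL and old_CR. The upper panel shows Dbp, Tef, Wee1, Ciart and Nfil3 and the lower one Per2 and Bmal1 with Dbp and Nfil3: Per2 runs close to Dbp, and Bmal1 and Nfil3 lie below 0 on all 4 old_CR arrays.

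Of 18 listed core clock genes 14 were measured, and in old_CR against old_AL 1 rose, 1 fell and 12 did not pass, with a median of -0.03. Per2, a repressor of the loop, rose by 1.16 ± 0.10 (limma adjusted p = 0.00914), about as much as Dbp. Bmal1, the activator, fell by 0.64 ± 0.11 (limma adjusted p = 0.0382). Per2 read -4.70 to -4.48 in young_AL, -4.65 to -4.43 in old_AL 2 to 4 and -3.55 to -3.18 in old_CR. The old_CR arrays lay above all others, and the ad libitum groups overlapped. On old_AL 1 it read -5.85.

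Against young_AL, Per2 (1.23 ± 0.09, limma adjusted p = 0.00143) and Bmal1 (-0.74 ± 0.10, 0.0121) again were the core clock genes that passed, 1 in each direction, with a median of 0.00. Per1 had a difference of -0.91 ± 0.20 (0.0504). With age at free feeding none of the 14 passed (median 0.04), and the smallest p-values were those of Per1 (-0.67 ± 0.21, limma adjusted p = 0.114), Npas2 (0.35 ± 0.13, 0.148) and Per3 (0.12 ± 0.05, 0.207). The E-box driven Nr1d1 differed by 0.27 ± 0.22 between the old groups (0.446). With 12 arrays none of the 14 passed in any comparison.

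The 15 glucocorticoid responsive genes are a group that includes targets of the hormone that follows feeding and the day. Angptl4 (-0.49 ± 0.08, limma adjusted p = 0.0408) and Cdkn1a (-0.35 ± 0.07, 0.0459) passed in old_CR against old_AL, both lower. There, 8 of the 15 differences were positive (median 0.03), but no gene passed as higher. None passed in old_AL against young_AL (median 0.04), where the smallest p-values were those of Cdkn1a (0.14 ± 0.07, limma adjusted p = 0.234), Tsc22d3 (-0.09 ± 0.05, 0.269) and Mt2A (0.67 ± 0.43, 0.370). In old_CR against young_AL Angptl4 alone passed, and it was lower (-0.45 ± 0.08, 0.0237), while 11 of the 15 differences were positive (median 0.12). Of 16 immediate early genes, which mark recent stimulation and handling, none passed in old_CR against old_AL (median -0.26). The smallest p-values there were those of Jun (-0.48 ± 0.10, limma adjusted p = 0.0579), Fosl2 (-0.38 ± 0.16, 0.171) and Egr4 (0.20 ± 0.11, 0.271). Egr4 fell by 0.64 ± 0.11 in old_AL against young_AL (0.0269, list median -0.16), and none passed in old_CR against young_AL (median -0.35; Nr4a2 -0.34 ± 0.08, 0.0508; Jun -0.42 ± 0.10, 0.0566; Egr4 -0.44 ± 0.10, 0.0606).

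With 12 arrays, no gene of the glucocorticoid, immediate early, cell cycle or cell marker lists passed in any comparison, so every call named from these lists was lost. A ganglion holds several cell types, and fewer cells of a type and less RNA per cell cannot be told apart in such samples. The 18 measured sensory neuron markers, among them Prph, Tubb3 and the neurofilament genes, were well above background on all 11 arrays, which fits the labelled tissue. Their sum of signals relative to the 75th percentile was 702 to 734.3 in young_AL, 698 to 734.9 in old_AL 2 to 4 and 668.8 to 708.4 in old_CR. Beside the diet difference of Dbp, Tef and Wee1, Isl1 rose (0.31 ± 0.04, limma adjusted p = 0.0289, list median 0.00), and the satellite glia marker Slc1a3 fell (-0.36 ± 0.05, 0.0289), 1 of 10 in a list with a median of -0.14 and sums of 120.6 to 126.4 in old_AL and 109.2 to 118.3 in old_CR. None of 14 macrophage markers (median -0.44, sums 34.22 to 49.33 and 26.74 to 42.14), 12 of myelinating Schwann cells (-0.10, 128.7 to 156.3 and 128.2 to 148.3), 9 of fibroblasts (-0.19, 42.76 to 55.89 and 35.66 to 48.6), 10 of endothelial cells (-0.29, 4.133 to 4.944 and 4.005 to 4.455), 7 of red cells (-0.48, 274 to 401.7 and 230.7 to 250.2) or 6 of fat cells (0.06, 3.153 to 4.227 and 3.014 to 3.772) passed there. Their part in the members' differences was not tested.

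Beside the age difference of Bhlhe40, 4 of the 14 macrophage markers rose, among them Gpnmb (1.48 ± 0.19, limma adjusted p = 0.0133) and Cd163 (1.81 ± 0.35, 0.0336), with a list median of 0.83 and sums of 23.64 to 37.2 in young_AL. Of the fat cell markers, Cfd rose (1.99 ± 0.22, limma adjusted p = 0.00810, list median 1.36, sums of 1.954 to 2.143 in young_AL). Cidec and Pck1 of that list were well above background on no array, Lep on 2 of 11 and Adipoq on 5 of 11. The neuronal markers Nefl, Nefh and Isl1 fell (-0.31 to -0.19), 3 of 18 in a list with a median of -0.004 and 9 positive differences. No gene of the satellite glia (median -0.03), Schwann cell (-0.20), red cell (0.65), fibroblast (0.00) or endothelial (0.20) lists passed. The part of these markers in the Bhlhe40 difference was not tested.

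In old_CR against young_AL, where Dbp, Tef, Wee1 and Bhlhe40 rose, 3 satellite glia markers (Slc1a3, Fabp7 and Sox10, list median -0.20), the neurofilament genes Nefl and Nefh (neuronal list median -0.04), Pmp22 (Schwann cell list, -0.35) and Col1a1 (fibroblast list, 0.01) fell. The macrophage marker Gpnmb (list median 0.34) and the fat cell markers Cidea, Adipoq and Cfd (1.09) rose, and no red cell (-0.02) or endothelial (-0.11) marker passed. Their part in the members' differences was not tested.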

How the data were processed

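Total RNA of 12 ganglion samples was labelled with Cy3 and hybridised to single-colour Agilent arrays, 4 for each of 3 groups, per the labels' protocols. The deposited values are linear spot intensities from Agilent Feature Extraction 10.7, per the submitters' processing notes, background-subtracted by the authors' scanner software and not scaled between arrays, per the file headers. The values deposited for the whole series were the same intensities (largest difference 0).

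The 8 members and the 12 other gene lists were chosen with earlier results of these data known, as was the leaving out of old_AL 1, and no pattern already known is given as independent support. Of 30367 probes (58717 gene spots), 17998 matched 15154 symbols through the accession and a RefSeq table of GRCr8, used for names because the array files carry an older build tag, and 12369 kept their accession. Outlier-flagged spots became missing values, saturated ones stayed, the 4259 control spots were left out and the log2 values of a probe's spots were averaged. Probes well above background (a share of at least 0.5 of the spots) on at least 4 arrays were kept, and the brightest probe stood for a gene. All 3 groups shared one spread in limma 3.58.1 (R 4.3.3, package data.table in version 1.17.8), with a threshold of 0.05 after Benjamini-Hochberg adjustment. The lists were described by counts and medians, with no test. Genes named were all members, list genes that passed or, where none did, up to 3 with the smallest p in the clock, hormone, immediate early and cell cycle lists, the nearest 5 genes to Dbp, Tef and Ciart (1 of them is not reported here), and 3 nearest to Dbp with the sign turned; Per1, Nr1d1 and the nearest misses against young_AL were named after their values were seen. A fold against a group with no array above background was taken to the higher of each array's own value and its lowest signal above background. For Ciart on the young_AL arrays this was always its own value, so that fold is the fold of the measured means. The fit was tested on simulated data. Replicate numbers are those of the source names. The labels tie each group to 4 rats.

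Replicate numbers did not pair the samples: deviations from group means of same-numbered arrays correlated at -0.089 to 0.087 over 10 pairs. Alternatives were all 12 arrays, quantile normalization, median centring, normexp with an offset of 50, other filters and probe rules, the deposited series values, a fit on the compared groups only, a trend of the spread with intensity, weights for arrays, a replicate block and leaving out each array.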

Additional observations from a re-analysis of the deposited data

Results flagged for a closer look

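In 23 groups with 4 array values, over 8 probes and 3 groups, 3 had an end array separated from its nearest neighbour by more than Dixon's 95% critical value allows, where chance gives about 1 in 20. Tef on old_AL 1 was 1.66, with its nearest neighbour at 0.48. Bhlhe40 on old_AL 1 was -4.65, with its nearest neighbour at -3.46. Both come from the array left out of the 11-array fit. Nfil3 on young_AL 1 was -3.04, with its nearest neighbour at -3.46, and this array is in the fit.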

How the results depend on the processing

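Of 231 values of the members under settings other than leaving out an array, 194 kept direction and side of the threshold, 27 lost the call, 1 (Ciart, old_AL against young_AL under normexp) gained it and 9 turned sign. With 1 array left out, 166 of 198 kept both, 32 lost the call and none turned. No turned value had passed in the 11-array fit. Old_AL against young_AL turned under median centring for Dbp (-0.0026), Nfil3 (-0.0191), Tef (-0.0394) and Wee1 (-0.0195), and for Nfil3 also under quantile normalization (-0.0802) and with 12 arrays (-0.0448). Old_CR against old_AL turned for Bhlhe40 with 12 arrays (0.1874) and quantile normalization (0.0412), and for Ciart under normexp (-0.0677). The cause was not tested, except that median centring moved the median of all genes by 0.10 (old_CR against old_AL) and -0.10 (old_AL against young_AL). Quantile normalization moved it by 0.10 in the first. The diet difference of Dbp was 1.04 to 1.23 over 13 settings and passed in 10, that of Tef was 0.11 to 0.51 and passed in 9, and that of Wee1 was 0.42 to 0.56 and passed in 10.

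Genes called numbered 222 for old_CR against old_AL, 676 for old_AL against young_AL and 503 for old_CR against young_AL. For the first, the limma count was 1 with 12 arrays, 934 with array weights, 865 with an intensity trend, 2107 with median centring, 128 without a filter, 370 with probes above background on every array, 4732 with normexp, 393 with quantile normalization and 0 with the compared groups alone (4701 at an unadjusted p under 0.05). For the second it was 4, 1019 with weights, 1089 with a trend, 2968 with median centring, 3838 with normexp, 1067 with quantile normalization and 27 with the compared groups alone. For the third it was 4, 1937 with weights, 226 without a filter and 836 with the compared groups alone. With 1 array left out the counts were 1 to 924, 70 to 402 and 42 to 862. Of the calls, 25.2% were higher for the first, and 69.5% with quantile normalization, 86.7% with median centring and 506 of 4732 with normexp. For the second, 61.5% were higher, and 22.9%, 13.1% and 86.3%.

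With the replicate number as a block, the counts were 1, 20 and 17. The numbers name the samples, and on every array the number is also its column on the slide. Number and column cannot be told apart, so this block is also a block for column. Dbp against young_AL kept its call, and the other 8 calls of the members were lost at limma adjusted p-values of 0.0529 to 0.0975. A block for slide was not run, because young_AL lies alone on its slide and the old groups share theirs. Ciart was not well above background on any young_AL array.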

Other observations

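Among old_CR arrays, Bmal1 was highest on old_CR 2 (-1.70), the array with the lowest Dbp, and lowest on old_CR 3 (-2.05), the array with the highest. In young_AL, Bmal1 was highest on young_AL 1 (-0.98), where Dbp was lowest, and lowest on young_AL 3 (-1.34), while Dbp was highest on young_AL 4. Per2 did not follow the order of Dbp: it was lowest on young_AL 3 (-4.70), lowest of old_AL 2 to 4 on old_AL 4 (-4.65), where Dbp was highest, and highest of old_CR on old_CR 4 (-3.18). Its lowest old_CR array was old_CR 2 (-3.55), as for Dbp. The array old_AL 1 read -2.09 for Bmal1 and -5.85 for Per2, each below every other array.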
